A study of Mus musculus with 11 samples.

Results

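The 7 genes described here, Mybl1, Tcfl5, Rfx2, Tbpl1, Crem, Sox30 and Pou5f2, encode transcription factors known for their work in meiotic and post-meiotic male germ cells. They were taken by symbol from the table of unique molecular identifiers (UMIs, tags that count each captured mRNA molecule once) and are 7 of its 20265 nuclear gene rows. All 7 symbols were found once, and all 7 passed the filter on low counts. The cells came from the testes of 3 adult Dazl-GFP reporter mice kept under standard conditions, with no treatment and no second genotype. Live GFP-positive cells were sorted, 1 to a well, so the gate limits the material to cells that carry the reporter of Dazl, a germ cell RNA-binding protein. Mouse 1 was prepared with CEL-Seq version 1 in 8 libraries that the column names do not separate, mouse 2 with CEL-Seq version 2 in 1 library, and mouse 3 with version 2 in 1 gate-sorted and 1 index-sorted library. Protocol and mouse therefore cannot be told apart.

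Male germ cells divide as spermatogonia, copy their DNA once more, and then pass through the leptotene, zygotene and pachytene stages of the first meiotic prophase. In pachytene a large transcription programme starts that supplies both the end of meiosis and the spermatids to come. MYBL1 is the MYB-family activator best known for switching on pachytene genes, among them the precursors of pachytene piRNAs. TCFL5 is a basic helix-loop-helix factor needed in the same cells. RFX2 drives cilium and flagellum genes, SOX30 is an HMG-box factor needed for spermatid genes, and CREM is a cyclic AMP-responsive factor that activates spermatid genes. TBPL1 is a relative of the TATA-binding protein needed for spermiogenesis, and POU5F2 is a testis POU-domain factor.

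Of 1920 wells, 1448 held at least 1000 UMIs, and 1227 of these were placed in 12 stages that run from spermatogonia to late pachytene. Stages were built from odd-numbered autosomes without the 7 genes or the genes of the lists counted below. Stage 1 (72 wells, led by Sdc4, Egr4, Ccnd2 and Ret) had no name by the marker rule. Stages 2 and 3 (124 and 128 wells) were differentiating spermatogonia-like, and stage 4 (109 wells) was preleptotene-like. Stage 5 (74 wells, led by Stra8 and Clu) had no name. Stages 6 to 9 (51, 112, 137 and 106 wells) were leptotene and zygotene-like, stage 10 (94 wells, led by Ptchd3, Stambp and Aym1) had no name, and stages 11 and 12 (127 and 93 wells) were pachytene-like. The name of stage 9, led by Gnas, Hemt1 and Gml, is not firm. Its share of UMIs from X-linked genes was 0.34%, against 1.97% at stage 8 and 0.22% at stage 10. At clustering resolution 0.6 a cluster led by Plekhg3, Gnas and Hemt1 was pachytene-like. At resolution 1.5, 1 cluster with Hemt1 and Gml among its leading genes was pachytene-like and another was leptotene and zygotene-like. The other settings kept the name. UMIs were summed for each mouse and stage, which gave 36 sums of 113360 to 4706777 UMIs. Levels are given in CPM, the UMIs of a gene per 1000000 nuclear UMIs of its sum, so a level is a share of the cell's mRNA. The number of UMIs per well was far from even: the mean of the mice's medians was 5785 at stage 7 and 87470 at stage 12. Markers of pachytene cells summed to 897 CPM at stage 1 and 11580 at stage 12. Somatic markers at stage 12 summed to 4.51 CPM for Sertoli cells, 9.47 for Leydig cells, 6.09 for peritubular myoid cells, 1.13 for macrophages and 2.01 for endothelial cells. Sertoli markers were highest at stage 5, at 391 CPM, and Clu, one of the genes that lead that stage, is in that marker list. Round spermatid markers were highest at stage 12, at 309 CPM, and their part in the results was not tested.

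All 7 genes were higher at the latest stage than at the earliest, in each of the 3 mice. By edgeR's quasi-likelihood test 7 of 7 were called higher at an adjusted p under 0.05 and 0 lower. The background, genes on even-numbered autosomes that took no part in the staging, was 36.6% called higher and 38.9% lower. The 7 genes and the lists below were chosen with earlier results of these data known. Their counts against the background are therefore no independent test. The median log2 fold change was 3.19 over the 7 genes and -0.10 over the 10967 genes tested. None of the 7 had an unadjusted p under 0.05 in the lower direction, and DESeq2 called 0 lower. In share of mRNA, Mybl1, Sox30 and Crem had the larger log2 fold change in the step into leptotene and zygotene-like stages, and Tcfl5 and Tbpl1 in the step from there to pachytene-like stages. On the spike-in scale described below, which follows the amount of mRNA, the order turned for Crem (1.501 and 3.66) and Sox30 (1.95 and 2.92). Relative to the median of all genes on that scale it did not turn. Crem was then at 2.49 and 1.10, and Sox30 at 2.93 and 0.36. Much of the increase of Tcfl5 and Tbpl1 in mean CPM came before stage 10. From stage 8 to stage 9 the means went from 191 to 300 CPM for Tcfl5 and from 234 to 268 for Tbpl1. Stage 9, with its low X-linked share, is averaged with stages 6 to 8 in these contrasts. No difference between the steps was tested.

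**Figure D1:**
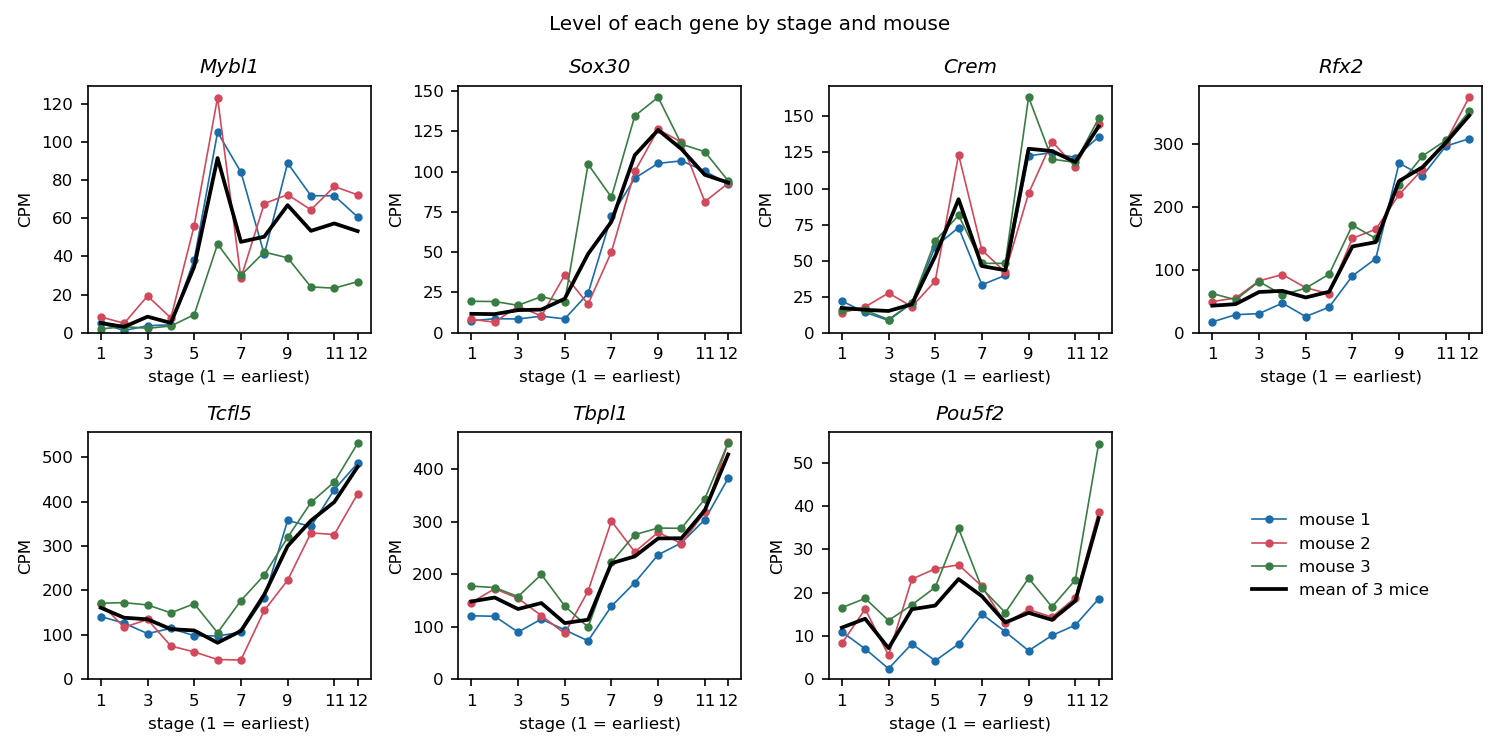
Level of each gene (y axis, CPM) over the 12 stages (x axis, 1 = earliest), with 1 thin coloured line per mouse and the mean of 3 mice in black. Mybl1 has its highest value at stage 6 in all 3 mice, though from only 13, 14 and 8 UMIs. Rfx2, Tcfl5, Tbpl1 and Pou5f2 are highest at stage 12 in all 3.

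Mybl1 went from a level near 0 to its highest mean at stage 6, the first leptotene and zygotene-like stage. At stage 2 it stood at 1.08, 4.87 and 3.11 CPM in mice 1, 2 and 3, from 2, 3 and 5 UMIs. At stage 5 the values were 38.3, 56.2 and 9.44 CPM, and at stage 6 they were 105, 124 and 46.5 CPM. The stage 6 values were the highest of each mouse and did not overlap with those of stages 1 to 4. They rest on 13, 14 and 8 UMIs, so both the height and the place of the maximum are loosely fixed. At stage 9 the mice stood at 89.1, 72.5 and 39.3 CPM, from 122, 27 and 32 UMIs. Against stage 1 the log2 fold change was 4.23 ± 0.54 at stage 6 and 3.95 ± 0.42 at stage 9 (SE). Stages 6 and 9 were not tested against each other. Over the mice the mean was 3.02 ± 1.90 CPM at stage 2 and 91.8 ± 40.2 at stage 6 (SD, n = 3), a 30.4-fold span between the lowest and highest stage means. In leptotene and zygotene-like against spermatogonia-like stages the log2 fold change was 3.87 ± 0.29 (SE, edgeR adjusted p = 1.28e-14), the largest of the 7. After that the means lay between 47.7 and 67.0 CPM at stages 7 to 11 and 53.3 ± 23.7 at stage 12. Pachytene-like against leptotene and zygotene-like stages gave -0.03 ± 0.16 (edgeR adjusted p = 0.91), with the sign differing between alternatives from -0.44 to 2.45, the last on the spike-in scale described below. Stage 9, whose name is not firm, counts among the earlier stages in that contrast. Mouse 3 was the lowest of the 3 at every stage from 9 on, with 26.8 CPM at stage 12 against 60.8 and 72.4.

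Sox30 had its highest mean share of mRNA at stage 9, the last stage named leptotene and zygotene-like by its markers. The X-linked share at that stage, 0.34%, was close to that of later stages and the name is not firm. Whether this maximum lies before pachytene can therefore not be told. In the contrasts below, stage 9 counts as leptotene and zygotene-like. Sox30's values at stage 4 were 10.2, 10.3 and 22.3 CPM. At stage 8 they had reached 95.9, 100.1 and 135 CPM, above every value of stages 1 to 5. The highest stage was 10 in mouse 1 and 9 in mice 2 and 3, at 107, 126 and 146 CPM. At stage 12 the 3 mice lay within 92.4 to 94.3 CPM. The log2 fold change was 2.73 ± 0.20 in leptotene and zygotene-like against spermatogonia-like stages (edgeR adjusted p = 9.82e-15). It was 0.44 ± 0.13 in the next step to pachytene-like stages (edgeR adjusted p = 0.0025), a call that was lost without mouse 2 (0.31, adjusted p = 0.063) and without the mouse block (0.46, adjusted p = 0.10). It was also lost with reads (0.59, adjusted p = 0.114), at clustering resolution 1.5 (0.21, adjusted p = 0.169), with sums of at least 20 wells (0.23, adjusted p = 0.085) and with spermatid wells removed before alignment (0.12, adjusted p = 0.55). In mouse 3 the mean CPM was lower in pachytene-like stages than before, at 103 against 117, while mice 1 and 2 went from 74.4 to 96.4 and from 73.5 to 87.1.

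Crem had high values at stage 6 and again from stage 9 on, with lower ones between. It stood at 8.46, 27.5 and 9.04 CPM at stage 3 and reached 72.9, 124 and 81.4 CPM at stage 6. It was lower in all 3 mice at the next stages, with 33.2, 57.3 and 48.1 CPM at stage 7 and 39.7, 42.0 and 48.1 at stage 8. At stage 9 it stood at 123, 96.7 and 163 CPM, and the level at stage 12 was 136, 145 and 149 CPM. The values of stages 7 and 8 did not overlap with those of stage 6 or of stages 9 to 12. The first peak rests on 9, 14 and 14 UMIs, and the dip itself was not tested. Crem's log2 fold change was 2.29 ± 0.19 in leptotene and zygotene-like against spermatogonia-like stages and 1.19 ± 0.12 in the step to pachytene-like stages (edgeR adjusted p = 1.92e-13 and 2.09e-11). The gene has 39 annotated transcripts, which include both activator and repressor forms, and one count per gene does not tell them apart.

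Rfx2 rose at each of the main steps. Its level was 17.0, 49.4 and 62.2 CPM at stage 1 and 90.4, 150.4 and 171 CPM at stage 7. By stage 9 it was 270.1, 220.2 and 235 CPM, and stage 12 held the highest value of each mouse, 309, 375 and 353 CPM. Stage 9 was the first stage at 50% or more of the mouse's own maximum in all 3. The log2 fold change was 1.37 ± 0.16 in leptotene and zygotene-like against spermatogonia-like stages and 1.54 ± 0.12 in the step to pachytene-like stages (edgeR adjusted p = 1.35e-09 and 1.19e-14). At the latest against the earliest stage the log2 fold change was 3.33 ± 0.21 from UMIs and 5.06 from reads, so the size depends on which of the deposited tables is summed.

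Tcfl5 was already present in spermatogonia, had its lowest mean at stage 6 and its highest at stage 12. The lowest mean was 82.0 CPM and the highest 479 CPM. The mice were already at 358, 223 and 319.5 CPM by stage 9, so much of the increase came before stage 10. Because the name of stage 9 is not firm, this does not place the increase before pachytene. At stage 1 it stood at 141, 170.3 and 171 CPM. At stage 6 the values were 97.2, 44.1 and 105 CPM, each below the same mouse's stage 1 value. The level was 182, 155 and 235 CPM at stage 8, passed 50% of the maximum at stage 9 in all 3 mice, and ended at 487, 418 and 532 CPM at stage 12. The log2 fold change in leptotene and zygotene-like against spermatogonia-like stages was 0.17 ± 0.13 (edgeR adjusted p = 0.25). It was called higher without mouse 2 (0.33, adjusted p = 0.027), with sums of at least 20 wells (0.45, adjusted p = 0.0012) and with spermatid wells removed before alignment (0.32, adjusted p = 0.048), and called lower on the spike-in scale, at -0.62. The step to pachytene-like stages gave 1.78 ± 0.11 (edgeR adjusted p = 1.42e-17), the largest of the 7 genes there, with stage 9 averaged among the lower stages 6 to 8.

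Promoter windows, the 250 bases before the start in RefSeq's table for GRCm38.p6, were examined for 5 of the 7 genes, and not for Mybl1 or Crem. Those of 3 genes are shown, and those of Tbpl1 and Pou5f2 are not. Tcfl5 and Rfx2 share a feature of their upstream sequence, which was picked after the sequences had been seen. Capitals mark the letters AACGG or CCGTT, a form of the core bound by MYB proteins read on both strands, and in Rfx2 also GTTGCC, a half-site of RFX proteins that overlaps the last MYB core. The Tcfl5 window is chr2:180642692-180642941 and the Rfx2 window chr17:56831009-56831258, both minus strand. The Sox30 window is chr11:45980060-45980309, plus strand.
Tcfl5: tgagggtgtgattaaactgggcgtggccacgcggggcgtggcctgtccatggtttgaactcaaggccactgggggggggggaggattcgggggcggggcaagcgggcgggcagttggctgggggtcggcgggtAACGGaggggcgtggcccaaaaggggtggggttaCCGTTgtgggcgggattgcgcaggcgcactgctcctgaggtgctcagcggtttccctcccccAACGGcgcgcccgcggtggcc
Rfx2: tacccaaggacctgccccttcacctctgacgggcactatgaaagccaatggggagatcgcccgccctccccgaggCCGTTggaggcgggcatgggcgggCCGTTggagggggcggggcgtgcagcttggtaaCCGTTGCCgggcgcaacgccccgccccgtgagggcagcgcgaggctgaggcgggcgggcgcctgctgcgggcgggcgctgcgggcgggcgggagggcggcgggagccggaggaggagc
Sox30: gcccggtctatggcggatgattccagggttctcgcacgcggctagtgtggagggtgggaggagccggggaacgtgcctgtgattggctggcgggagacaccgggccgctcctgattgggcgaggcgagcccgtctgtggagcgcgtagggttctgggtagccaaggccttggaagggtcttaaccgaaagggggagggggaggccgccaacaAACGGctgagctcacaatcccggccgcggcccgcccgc
The windows of Tcfl5 and Rfx2 each held the MYB core at 3 places, that of Sox30 and that of Pou5f2 at 1, and that of Tbpl1 at 0. Among 32817 promoter windows of the same length, 14.5% held the core at least once and 0.128% at 3 or more places. The RFX half-site was in 10.4% of windows. Other motifs were searched too: Rfx2 also held a CRE half-site (TGACG) at -224 and Sox30 a SOX core (ACAAT) at -25. The Tcfl5 and Rfx2 windows were 70.4% and 76.0% GC, and the shares among all windows take no account of that. The letters were chosen after these sequences had been seen, and a link between them and the timing of any gene was not tested. A match describes the sequence and shows no binding.

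Tbpl1 was likewise present from stage 1. It was first at 50% or more of its maximum at stages 9, 7 and 8 in mice 1, 2 and 3, where Tcfl5 was so at stage 9 in each, and the 2 genes were not tested against each other. Its level was 120.5, 146 and 177 CPM at stage 1, and at 72.9, 168 and 98.8 CPM at stage 6, where mouse 2 was above its own start and the other two were below. Stage 12 gave 382, 451 and 450 CPM, above every other value of the gene. In leptotene and zygotene-like against spermatogonia-like stages the log2 fold change was 0.43 ± 0.10 (edgeR adjusted p = 2.0e-04), but -0.33 on the spike-in scale. In pachytene-like stages it was a further 1.21 ± 0.09 (edgeR adjusted p = 1.15e-15).

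Pou5f2 rests on few UMIs, 798 over all stages. Its level at stage 1 was 10.95, 8.24 and 16.5 CPM, and no stage before 12 had a mean above 23.15 CPM. At stage 12 it was 18.6, 38.7 and 54.5 CPM, the highest value in each mouse. Of the 345 UMIs at stage 12, 51 came from 1 well of mouse 3, which was also the richest well for Tcfl5 and Tbpl1 and held 182560 UMIs. The log2 fold change was 1.81 ± 0.30 at the latest against the earliest stage (edgeR adjusted p = 1.08e-06). It remained called under every alternative but was smaller at clustering resolution 1.5 (0.99, adjusted p = 0.036), with another clustering library (igraph; 1.07, adjusted p = 0.0059) and with spermatid wells removed before alignment (0.95, adjusted p = 0.014). In the step to pachytene-like stages it was 0.87 ± 0.20 (edgeR adjusted p = 1.82e-04) and in the earlier step 0.78 ± 0.27 (edgeR adjusted p = 0.0096). Neither of these calls was stable. The pachytene one was lost without mouse 3 (0.66, adjusted p = 0.062), at clustering resolution 0.6 (0.36, adjusted p = 0.185), with low-depth clusters kept (0.37, adjusted p = 0.31), with igraph (0.43, adjusted p = 0.070) and with spermatid wells removed before alignment (0.37, adjusted p = 0.31). The earlier one was lost without mouse 1 (0.68, adjusted p = 0.078), without mouse 2 (0.75, adjusted p = 0.0503), without the mouse block and under 6 other choices of wells or stages, the lowest of these at 0.28 (adjusted p = 0.44), and it was -0.01 on the spike-in scale.

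Read by step, 6 of the 7 genes were called higher in leptotene and zygotene-like against spermatogonia-like stages, all but Tcfl5, and 0 lower. The background was 27.1% higher and 41.0% lower, and the medians were 1.37 over the 7 genes and -0.24 over all genes tested. In pachytene-like against leptotene and zygotene-like stages 6 of 7 were called higher, all but Mybl1, and 0 lower, against a background of 40.3% higher and 28.2% lower. The medians there were 1.19 and 0.14. In both steps 0 of the 7 had an unadjusted p under 0.05 in the lower direction, and DESeq2 called 6 higher and 0 lower. The 2 steps share the leptotene and zygotene-like sums, and a difference between genes in the size of a step was not tested.

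**Figure D2:**
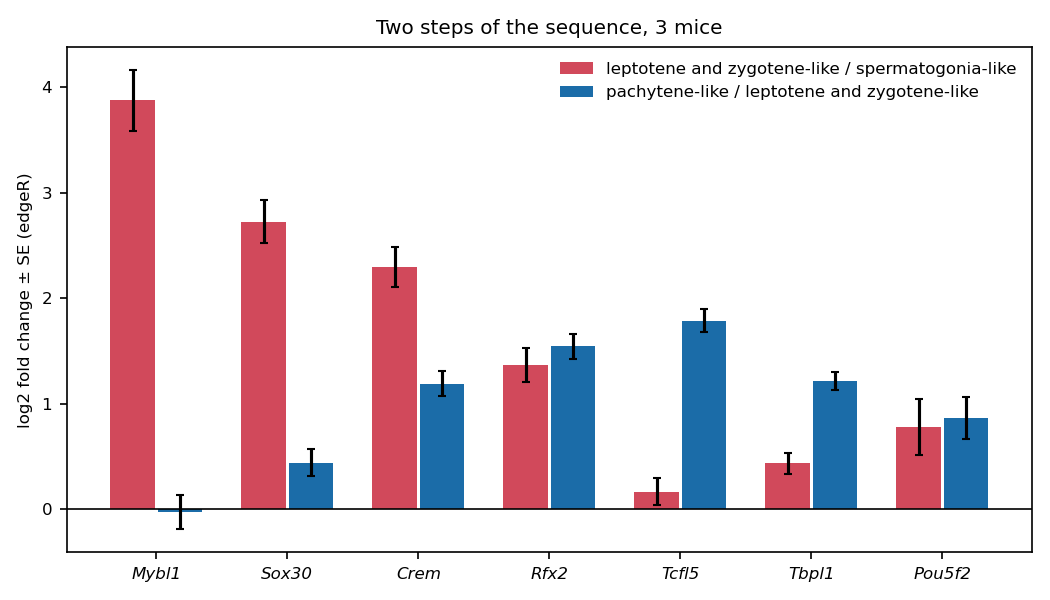
Log2 fold change with its standard error (y axis, edgeR, 3 mice) for each gene (x axis) in leptotene and zygotene-like over spermatogonia-like stages (red) and in pachytene-like over leptotene and zygotene-like stages (blue). Mybl1 shows 3.87 in the first step and -0.03 in the second, and Tcfl5 0.17 and 1.78. On the spike-in scale the first step of Tcfl5, Tbpl1 and Pou5f2 is -0.62, -0.33 and -0.01, and the second step of Mybl1 is 2.45.

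These levels are shares of mRNA, and the amount of mRNA per cell itself changed. Added ERCC spike-in RNA gives another scale: the ratio of nuclear to spike-in UMIs was 79.2 ± 61.8 for stage 1, dropped to 19.9 ± 15.1 for stage 7 and ended with 243 ± 167 for stage 12 (SD, n = 3), and the mice were far apart throughout. On that scale the median of all genes tested moved to 1.35 at the latest against the earliest stage, to 2.56 in the step to pachytene-like stages and to -0.99 in the earlier step. Relative to those medians, Mybl1 was at -0.11 and Tcfl5 at 1.71 in the step to pachytene-like stages, and Mybl1 was at 4.08 and Tcfl5 at 0.36 in the earlier one. In UMIs per well, the mean over mice went from 0.69 at stage 6 to 4.76 at stage 12 for Mybl1 and from 0.70 to 46.9 for Tcfl5.

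**Figure D3:**
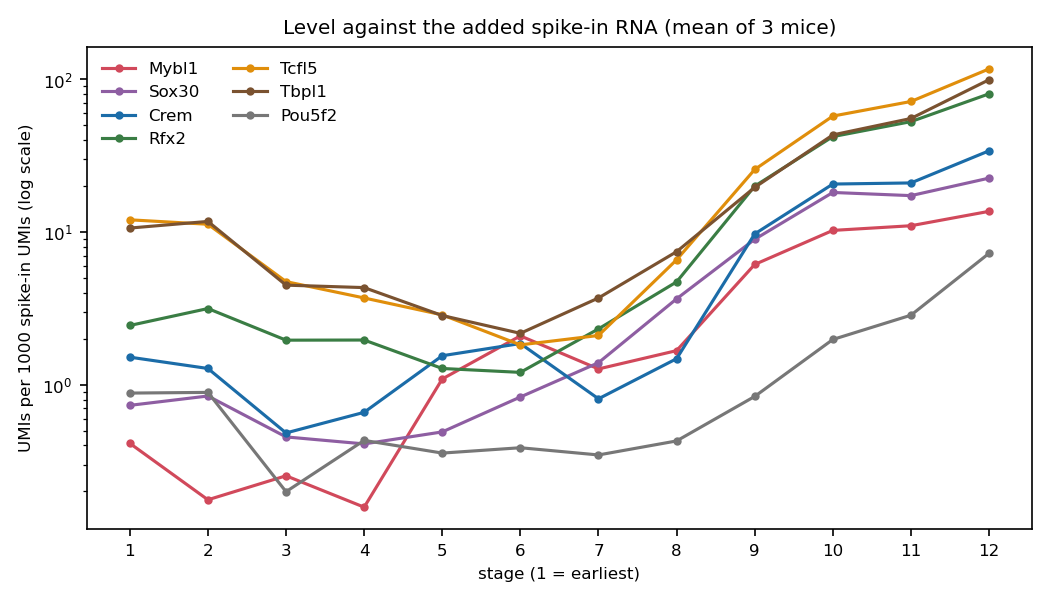
Mean UMIs of each gene per 1000 spike-in UMIs (y axis, log scale, mean of 3 mice) over the 12 stages (x axis). Tcfl5 goes from 12.04 at stage 1 through 1.82 at stage 6 to 117 at stage 12, and Mybl1 from 0.41 through 2.09 to 13.7.

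A centre of expression, the mean stage weighted by CPM on a scale where 0 is stage 1 and 1 is stage 12, put the 7 genes in order. The centre was 0.576 ± 0.007 for Pou5f2, 0.621 ± 0.021 for Tbpl1, 0.653 ± 0.017 for Tcfl5, 0.657 ± 0.012 for Mybl1, 0.697 ± 0.009 for Crem, 0.704 ± 0.032 for Sox30 and 0.714 ± 0.037 for Rfx2 (SD, n = 3). A gene with a raised level in spermatogonia has a low centre even when its rise is late, which is the case for Tbpl1 and Tcfl5. The same holds for Pou5f2 relative to its own maximum, with means of 11.9 CPM at stage 1 and 37.3 at stage 12. Stage 12 was its highest in each mouse, so its low centre is no sign of an early rise. Of the 6 pairs of neighbours, Pou5f2 and Tbpl1 lay apart in all 3 mice, as did Mybl1 and Crem. Tbpl1 came before Tcfl5 in each of the 3 mice, though the values of the 2 genes overlapped between mice. Tcfl5 and Mybl1, Crem and Sox30, and Sox30 and Rfx2 changed order between mice and did not differ beyond their spread.

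**Figure D4:**
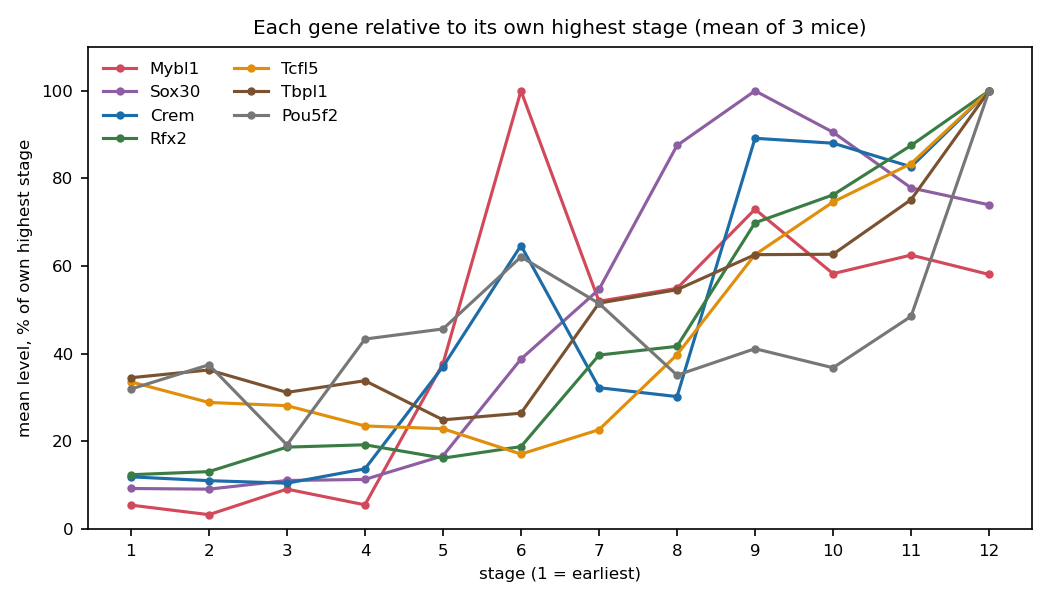
Mean level of each gene as a percentage of its own highest stage mean (y axis, 3 mice) over the 12 stages (x axis). Mybl1 has its highest mean at stage 6, Sox30 at stage 9 and the other genes at stage 12.

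Shares of single wells with a UMI were taken after each well was thinned to 3000 UMIs, which left out shallower wells, 25 of 112 at stage 7. Mybl1 was seen in 0 of 71 wells at stage 1, which allows a share of up to 4.23%, and in 20.8% of 48 wells at stage 6 (95% exact interval 10.5 to 35.0%). At stage 12 its share was 12.9% of 93 wells (6.85 to 21.5%), an interval that overlaps the one at stage 6. Tcfl5 was seen in 45.1% of wells at stage 1, 23.0% at stage 7 and 71.0% at stage 12 (60.6 to 79.9%). Rfx2 went from 14.1% at stage 1 to 67.7% at stage 12 and Sox30 from 2.82% to 22.6%. Crem went from 9.86% to 31.2%. Its shares at stages 6 and 7, 22.9% (12.03 to 37.3%) and 10.3% (4.84 to 18.7%), had overlapping intervals, and mouse 2 was higher at stage 7, so the lower CPM of stage 7 did not show beyond counting error at this depth. Pou5f2 stayed at 7.53% or less in every stage, close to the level at which thinned wells give single UMIs. Without thinning, at stage 12 a UMI was found in 100% of wells for Crem, Rfx2, Tbpl1 and Tcfl5, 97.8% for Sox30, 91.4% for Mybl1 and 75.3% for Pou5f2. The intervals cover counting error alone and take no account of the mouse.

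**Figure D5:**
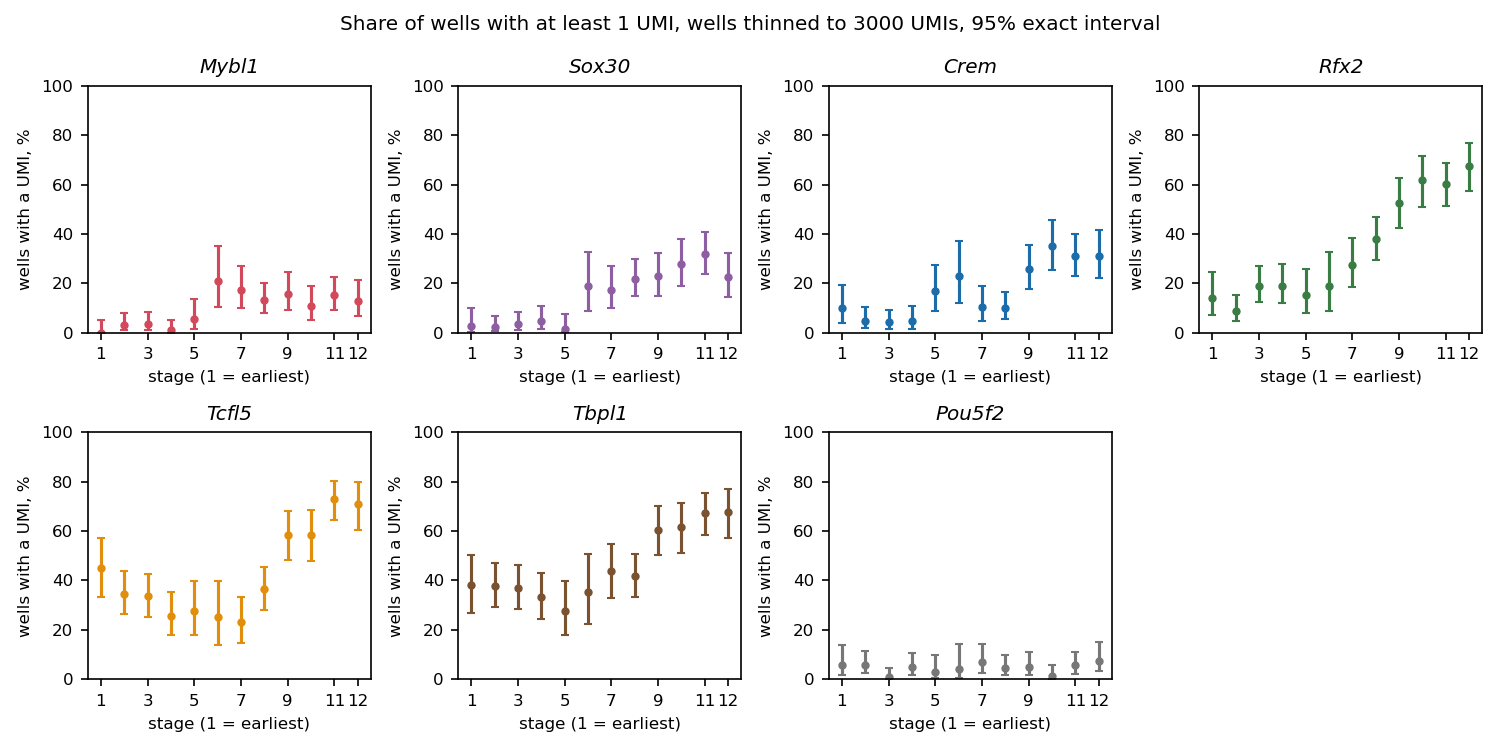
Share of wells with at least 1 UMI of each gene (y axis, percent, wells thinned to 3000 UMIs, bars are 95% exact binomial intervals) over the 12 stages (x axis). Tcfl5 and Rfx2 reach 71.0% and 67.7% at stage 12, and Mybl1 is highest at stage 6 with 20.8%.

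The 7 genes lie on 7 different autosomes. In GENCODE vM21 (GRCm38) Mybl1 is at chromosome 1, 9667415 to 9700209, minus strand, and Tcfl5 at chromosome 2, 180621956 to 180642708, minus strand. Rfx2 is at chromosome 17, 56775897 to 56831013, minus strand, and Tbpl1 at chromosome 10, 22703879 to 22731938, minus strand. Crem is at chromosome 18, 3266048 to 3337748, minus strand, Sox30 at chromosome 11, 45980310 to 46017994, plus strand, and Pou5f2 at chromosome 13, 78024902 to 78026295, plus strand. Pou5f2 has 1 exon and lies on the same strand inside the span of Fam172a, so its UMIs could be divided with that gene. Fam172a had 1104 UMIs over the stages and a log2 fold change of 1.07 ± 0.33 at the latest against the earliest stage (edgeR adjusted p = 0.0042). The ends of Tcfl5 and Tbpl1 overlap the opposite-strand genes Col9a3 and Slc2a12, which held 106 and 8 UMIs over the stages, against 13130 and 11020 for the members.

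By the rule of highest mean Pearson r over the 3 mice, across stages of log2(CPM + 10), these genes had the patterns most like each member (12 stages per mouse, descriptive, with depth shared by all genes of a sum). Those on odd-numbered autosomes, such as Msh4 and Spdya, could have helped to build the stages. For Mybl1 the nearest genes were 1700028K03Rik, Spdya, a cyclin-dependent kinase activator needed in meiosis, and Msh4, a crossover protein, with r of 0.928, 0.927 and 0.927. For Tcfl5 they were Phf1, Pebp1 and Tmem97 (0.958, 0.957 and 0.956), and for Rfx2 Dnajc15, Gm11837 and A330021E22Rik (0.969, 0.967 and 0.966). For Crem they were Dtx3, Mtch2 and Dmrtc2 (0.965, 0.957 and 0.953), and for Sox30 4930524B15Rik, Nol8 and 1700020N01Rik (0.947, 0.944 and 0.943). Tbpl1 was nearest to Rnf166, Wdr12 and Dnajc27 (0.939, 0.926 and 0.925). Pou5f2 had no close match, with Phospho2, Fam126a and 1700051A21Rik at 0.703, 0.685 and 0.662. Among the members themselves r was highest between Rfx2 and Sox30 (0.889) and lowest between Mybl1 and Tcfl5 (0.337).

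Of 16 measured relatives in the same protein families 6 were called higher and 8 lower at the latest against the earliest stage, with a median log2 fold change of -0.47. The background in that comparison was 36.6% higher and 38.9% lower, so the share called higher was near it. Rfx4 rose from 6.37 ± 2.09 to 121 ± 10.7 CPM (SD, n = 3; log2 fold change 4.48 ± 0.32, edgeR adjusted p = 1.34e-15), while Rfx1 fell by 3.25 on the log2 scale. Sox6 rose by 3.40, Sox3, an X-linked gene, fell by 6.07, and Sox4 fell by 5.86 on the log2 scale. Pou3f1 went from 156 UMIs at stage 1 to 3 at stage 12. Mybl2, the MYB factor of dividing cells, fell by 2.17, and Tbp, the TATA-binding protein itself, rose by 1.77, close to Tbpl1's 1.82. Of 23 other regulators of spermatogenic transcription 8 were called higher and 11 lower, with a median of -0.56, shares that again lie near the background. Kctd19 and Dmrtb1 each rose by 4.91 on the log2 scale, and Sohlh1, a spermatogonial factor, fell by 6.70. Zbtb16, the stem cell factor PLZF, went from 148 ± 26.4 to 0.314 ± 0.272 CPM.

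Genes linked to the members in earlier work were also counted, against the same background of 36.6% higher and 38.9% lower at the latest against the earliest stage. Of 10 MYBL1-linked genes, mostly of the piRNA pathway, 9 were called higher and 1 lower at the latest stage, with a median log2 fold change of 1.51. Tdrd6, a germ granule Tudor protein, rose by 5.24 and Piwil1, the pachytene piRNA-binding protein, by 4.21, while Mov10l1, a piRNA helicase, fell by 0.39 on the log2 scale. In the step from leptotene and zygotene-like to pachytene-like stages 9 of 10 were called higher and 1 lower against a background of 40.3% and 28.2%, and in the earlier step 6 of 10 higher against 27.1%. Of 8 RFX-linked genes with enough counts all 8 were called higher at the latest stage, with a median of 4.60. Dnali1, an axonemal dynein light chain, rose by 5.002 on the log2 scale and Gtf2a1l, a testis form of a general transcription factor, by 4.87. CREM-linked genes act in spermatids. Of 9 measured, 3 were called higher and 1 lower, with a median of 0.40, and the share called higher was near the background. Akap4 rose by 2.29, Smcp by 2.04 and Odf1 by 1.91 on the log2 scale, from 4, 10 and 8 UMIs at stage 1, and Ace fell by 1.64, though its CPM was higher in 1 of the 3 mice. Between leptotene and zygotene-like and pachytene-like stages 6 of the 9 were called lower, against a background of 28.2%. The summed level of elongating spermatid markers, several of which are in this list, ranged from 30.5 to 236 CPM with its highest value at stage 7, and its part in those calls was not tested. Wells with at least 0.5% of UMIs from those spermatid markers, 8 in all, had been left out before the sums. That limit was set after the clusters were seen and acts on genes of this list, so the CREM-linked counts are not independent of it. Piwil1 and Ccna1 are also in the pachytene marker list that named the stages.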

How the data were processed

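Single-cell libraries were made by SORT-Seq, with CEL-Seq version 1 or 2 per the labels. UMI counts and read counts per gene and well were deposited by the authors, along with estimated counts of transcripts, which follow from the UMI counts by a correction for UMI collisions and were rounded here. Reads were aligned with BWA 0.7.10 to mm10, per the submitters' processing notes. The annotation and the use of strand are not given in the sources used here. Members and gene lists were chosen with earlier results of these data known.

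Wells with at least 1000 UMIs were kept (545, 321 and 582 in mice 1, 2 and 3, with median UMI counts of 16275, 9830 and 14132.5). Mitochondrial and spike-in rows stayed out of the totals. The plates share all 384 well names, which are plate positions. No doublet caller was run. Mice were aligned with Seurat on 1500 variable genes of odd-numbered autosomes. Wells were clustered by Leiden at resolution 1 on 15 components and 15 neighbours, and clusters were ordered by diffusion pseudotime. Of 16 clusters, 4 of low depth (213 wells) were left out, and so were 8 wells with at least 0.5% elongating spermatid marker UMIs (10 wells lay within 2-fold of that limit). This limit was set after the clusters were seen. In all, 5 staging configurations were tried, and this one was kept after cluster sizes, names and leading genes had been seen, before the members' levels by stage were computed. Of the other 4, 3 were run as alternatives, and the fourth, which split a cluster, was not fitted.

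Sums per mouse and stage were tested with edgeR's quasi-likelihood test (TMM, filterByExpr, mouse as a block), with Benjamini-Hochberg adjustment over 10967 genes. The same mouse gives all 12 stages, so the pairing comes from the animal. With 1 sum per mouse and stage, p-values rest on the spread left among the 36 sums once mouse and stage are fitted. They are not a measure of the spread over 3 mice alone, for which the smallest exact p of paired signs is 0.25. On simulated counts for the latest against the earliest stage (10967 genes, 200 of them changed), the test recovered 89% of 4-fold and 62% of 2-fold changes and called 0.28% of unchanged genes. These counts were drawn with the fitted dispersions, with changes at the latest stage alone and no other stage effect. In the data 36.6% of background genes were called higher and 38.9% lower, so these rates may not carry over. Text names all members, the 3 genes most like each among genes with a mean of at least 20 CPM, and called genes of each list with the largest changes. Rfx1, Sox4, Mybl2, Tbp and Odf1 were named after their values were seen.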

Additional observations from a re-analysis of the deposited data

Results flagged for a closer look

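Members were also seen in wells that no comparison used. The 472 wells under 1000 UMIs held 217 UMIs of the 7 genes among 179485, or 1209 CPM, where a count of 0 would allow 16.7 CPM. The 213 wells of the low-depth clusters held 765 UMIs among 717836, or 1066 CPM. There Tcfl5 stood at 329 CPM, Tbpl1 at 281, Rfx2 at 263, Sox30 at 78.0, Crem at 76.6, Mybl1 at 26.5 and Pou5f2 at 11.1. Most of these came from the 71 wells of the cluster led by Plekhg3, with 526 of the 765 UMIs. The 8 wells rich in elongating spermatid markers held 109 UMIs of the members, with Tcfl5 at 225 CPM and Mybl1 at 43.6.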

How the results depend on the processing

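Over 20 alternatives, 3 of them chosen after seeing the data, 7 of 7 members stayed called higher at the latest against the earliest stage. Of 420 recomputed log2 fold changes 383 kept direction and call, 20 lost the call, 3 gained it and 14 changed sign. The spike-in scale gave 2 members called lower in leptotene and zygotene-like against spermatogonia-like stages, Tcfl5 (-0.62) and Tbpl1 (-0.33), with Pou5f2 at -0.0096. It gave Mybl1 2.45 in the step to pachytene-like stages. In that step Mybl1's sign also changed without a filter (0.0015), without a replicate block (0.049), with reads (0.21), transcripts (0.014), even-autosome staging (0.16), sums of at least 20 wells (0.15), spermatid wells kept (0.017) or removed before alignment (0.0035), and it ranged from -0.20 to 0.078 with 1 mouse left out. Resolution 0.6 gave Tcfl5 -0.10 in the earlier step. Median-ratio factors and DESeq2 moved the median of all genes by -0.14 and -0.15 at the latest against the earliest stage, and reads by 0.29 in the step to pachytene-like stages. Without the replicate block 5 of 7 were called higher in each of the 2 steps, since Sox30 (0.46, adjusted p = 0.10) and Pou5f2 (0.78, adjusted p = 0.065) lost their calls. Removing the spermatid wells before alignment left 4 of 7 higher in the step to pachytene-like stages. Of 105 recomputed centres 28 moved by more than the SD over mice. Thinning to 5000 UMIs raised the share of wells at stage 12, for Mybl1 to 26.9%. Depth limits Mybl1, Crem, Sox30 and Pou5f2 at stages 1 to 7, where a sum often held under 20 UMIs.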
